A study of Homo sapiens with 3 samples.

Results

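The genes described here are the core of the machinery that builds and turns over actin filaments. They are the 2 cytoplasmic actins (ACTB, ACTG1) and 3 capping protein subunit genes (CAPZA1, CAPZA2, CAPZB). The others are the 3 genes of the cofilin family (CFL1, CFL2, DSTN) and 2 profilins (PFN1, PFN2). The 10 genes were taken by symbol from the 23284 genes of the deposited gene table, together with their 20 of 41138 RefSeq isoforms. All 10 entered the comparison, which held 11870 genes. The list was selected on values of these same libraries, since the FPKM ratios of CAPZB and ACTB were known when it was drawn up, so the members' values are a description and carry no test.

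The cells were HEK293T, a human embryonic kidney line that is easily transfected. The 3 groups were cells given a negative control siRNA, cells given an siRNA against ESRP2, an epithelial splicing regulator, and cells given an siRNA against Arkadia, the ubiquitin ligase encoded by RNF111. Each group was 1 library of polyadenylated RNA, taken 48 h after seeding onto the transfection mix without added TGF-beta. With no replicates every difference is one between 2 libraries, the spread between cultures is unknown, and fewer cells of a kind and less RNA per cell cannot be told apart.

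Actin monomers add mainly at the fast-growing barbed end of a filament. Profilins bind monomers and deliver them to that end, and capping protein, an obligate heterodimer of an alpha and a beta subunit, blocks it. Cofilin and destrin sever aged filaments and return monomers to the pool, and LIM kinases switch them off by phosphorylating a serine near their start. The 2 cytoplasmic actins differ in a few residues only and are among the most abundant proteins of most non-muscle cells.

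Reads from related genes can be told apart only where their sequences differ, so the starts of the actin coding sequences are shown first, with the bases that differ between them in capitals (GENCODE 29 transcripts of NM_001101 and NM_001614, coding bases 1 to 60).
ACTB: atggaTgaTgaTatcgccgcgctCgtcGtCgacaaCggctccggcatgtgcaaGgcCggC
ACTG1: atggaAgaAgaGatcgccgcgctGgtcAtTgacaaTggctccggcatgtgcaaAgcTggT

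These 60 bases held 10 differences, and over the whole coding sequence of 1128 bases the identity was 91.2%, with a longest identical run of 59 bases. Identity was 77.7% between CAPZA1 and CAPZA2, 70.1% between CFL1 and CFL2, 63.7% between CFL1 and DSTN and 60.3% to 61.9% between PFN1 and the isoforms of PFN2. GENCODE 29 also names 20 pseudogenes after ACTG1, 10 after ACTB, 10 after PFN1, 8 after CFL1 and 4 after DSTN, and none after the other 5 members. How the authors' software shared reads among such copies is not given in the sources used here, so the levels of ACTB, ACTG1, CFL1, PFN1 and DSTN are uncertain to that extent.

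The cofilin family is shown by its first 30 coding bases, because the third codon, in capitals, encodes the serine that LIM kinases phosphorylate; it is a serine codon in all 3 genes.
CFL1: atggccTCCggtgtggctgtctctgatggt
CFL2: atggctTCTggagttacagtgaatgatgaa
DSTN: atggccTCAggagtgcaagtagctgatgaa

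Levels are in FPKM, fragments per kilobase of transcript scaled to library size, with the authors' confidence interval in brackets. The low values implied depths near 11.7 M reads in the control library, 12.2 M after the ESRP2 siRNA and 8.8 M after the Arkadia siRNA. On that estimate the members rested on about 418 reads (CAPZA2, Arkadia siRNA) to 56554 reads (ACTG1, ESRP2 siRNA). Each siRNA target was lowest in the library named for it. RNF111 stood at 6.38 in the control library, 7.65 after the ESRP2 siRNA and 1.15 after the Arkadia siRNA, where its interval (0.5 to 1.82) lay below the others; ESRP2 stood at 14.8 (3.34 to 26.3), 4.27 (0.0878 to 9.33) and 21.2 (6.21 to 36.5), with overlap. All 5 fixed embryonic kidney genes reached an FPKM of 1 in at least 1 library. Of 16 markers of other cell types only CORO1A did. Their summed FPKM was 4.64 to 7.62, and HBB was at 0 in all 3 libraries.

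Together the members made up 0.837% of the summed FPKM with control siRNA, 0.827% with ESRP2 siRNA and 1.03% with Arkadia siRNA. ACTG1 was the most abundant in each library and ACTB came next. In the control library CFL1, PFN1, CAPZB, DSTN, PFN2, CAPZA1, CAPZA2 and CFL2 followed in that order. Only PFN1 and CAPZB had intervals that did not overlap there; every other pair of neighbours in the order overlapped. With ESRP2 siRNA, CAPZB moved up to the third place, next to ACTB with an overlapping interval, and only ACTG1 and ACTB were separated. With Arkadia siRNA the single gap lay between CAPZB and PFN2.

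**Figure D1:**
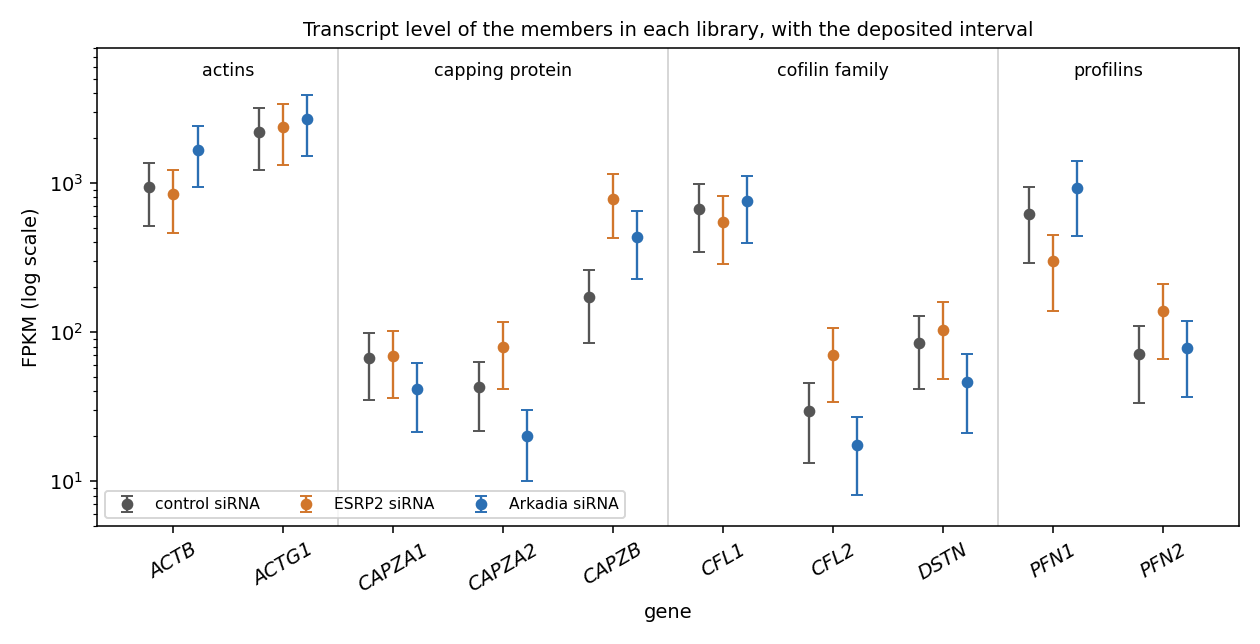
FPKM of the 10 genes (log axis) after control, ESRP2 or Arkadia siRNA, 1 library each; points are the deposited FPKM and bars the deposited confidence interval. CAPZB is the gene whose control interval (84.6 to 259.7) lies apart from its ESRP2 siRNA interval (429.6 to 1144).

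A gene is called higher or lower here when log2((FPKM + 1)/(FPKM + 1)) passed 1.5-fold. With ESRP2 siRNA 4 members were higher than with control siRNA (CAPZB, CFL2, PFN2, CAPZA2), 1 was lower (PFN1) and 5 did not pass. Of all genes entered, 19.9% were higher and 11.4% lower at that size, a total of 31.3%. The median log2 ratio was 0.19 over the members and 0.12 over all genes. With Arkadia siRNA 3 members were higher (CAPZB, ACTB, PFN1), 4 were lower (CAPZA2, DSTN, CFL2, CAPZA1) and 3 did not pass, where 9.81% of all genes were higher and 11.8% lower, a total of 21.6%. The medians were 0.16 and -0.02. At 2-fold 3 members passed with ESRP2 siRNA (CAPZB, CFL2, PFN1) where 7.87% of all genes did, and 2 with Arkadia siRNA (CAPZB, CAPZA2) where 3.92% did.

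The balance of higher and lower genes in the whole table depended on scaling. With ESRP2 siRNA 2361 genes were higher and 1354 lower as deposited, 1718 and 1834 after median-of-ratios scaling and 1526 and 2052 after upper-quartile scaling, which shifted the median log2 ratio by -0.11 and -0.15. The member counts of both comparisons with control were the same under these scalings. Only 1 of these member calls came with intervals that did not overlap, that of CAPZB with ESRP2 siRNA; 1.28% of all genes met both criteria in that comparison. With Arkadia siRNA no member met both, against 0.438% of all genes.

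**Figure D2:**
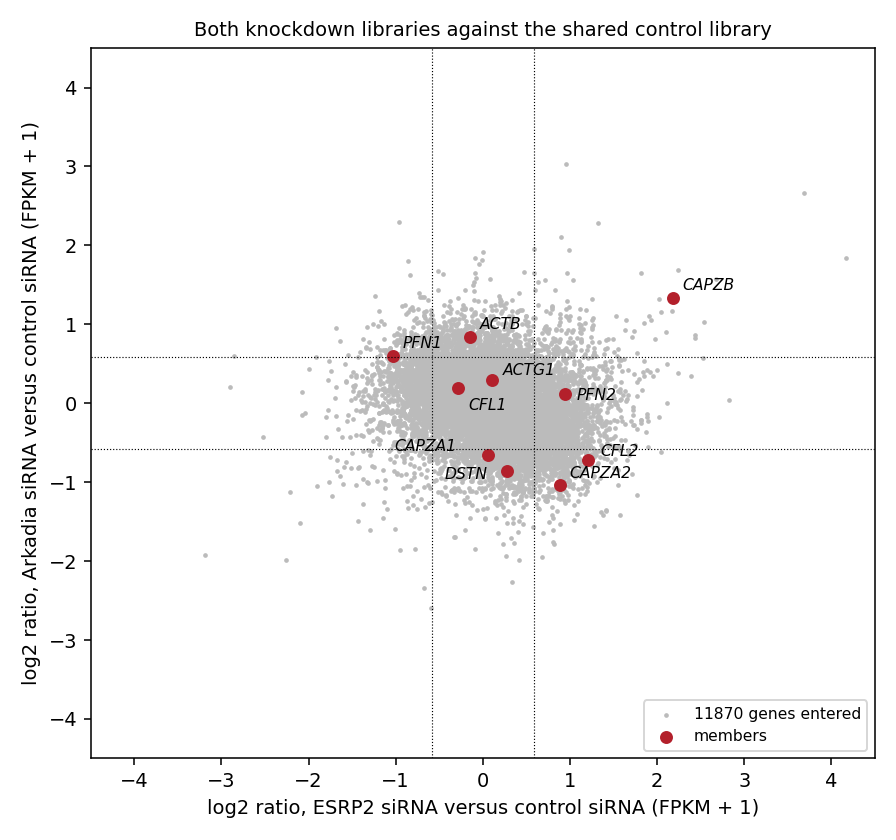
Log2 ratio of FPKM + 1 for ESRP2 siRNA (x axis) and Arkadia siRNA (y axis) against the control library, which both axes share; grey points are the 11870 genes entered (1 lies outside the axes), red points the 10 genes, dotted lines 1.5-fold. CAPZB (2.18 and 1.33) stands at the upper right, while CFL2, CAPZA2 and PFN1 are higher in one library and lower in the other.

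The actins are the filament subunits. ACTB (hg19, chromosome 7, 5566779 to 5570232) stood at an FPKM of 933 (511 to 1350.4) in the control library, 839 (461 to 1215) with ESRP2 siRNA and 1670.4 (932 to 2404) with Arkadia siRNA. It was highest with Arkadia siRNA, 1.79-fold above control with a log2 ratio of 0.84, and all 3 intervals overlapped. ACTG1 (chromosome 17, 79476997 to 79479892) had 2200.5 (1225 to 3177), 2353 (1320.2 to 3387) and 2694 (1516 to 3871) in the same order. Its log2 ratios of 0.10 and 0.29 did not pass 1.5-fold, and its intervals overlapped throughout. The share of ACTB in the sum of both actins was 29.8% with control siRNA, 26.3% with ESRP2 siRNA and 38.3% with Arkadia siRNA.

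The isoform table divided ACTG1 differently in the Arkadia siRNA library. The coding isoform NM_001614 (1986 nt) stood at 2172 (1205 to 3139.7), 2227 (1226 to 3229) and 1972 (992 to 2953) with control, ESRP2 and Arkadia siRNA, so it was not higher with Arkadia siRNA. The non-coding isoform NR_037688, which is 149 nt shorter, stood at 28.3 (0 to 141), 126 (0 to 366) and 721 (109 to 1340). Its share of the gene went from 1.28% through 5.36% to 26.8%, and its 3 intervals overlapped. The third isoform, NM_001199954, was listed at 0, 0 and 0.836.

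The change in isoform usage of a gene was scored as the sum of its absolute share differences divided by 2, on a scale from 0 to 1. For ACTG1 it was 0.0408 with ESRP2 siRNA and 0.255 with Arkadia siRNA. Among 3455 genes with at least 2 isoforms and enough signal, 17.1% reached 0.25 with Arkadia siRNA and 20% with ESRP2 siRNA. ACTB has 1 isoform in the table and gave no usage value.

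The muscle actins stayed low. ACTA1, of skeletal muscle, was 0.539, 0.577 and 0.636, ACTC1, of cardiac muscle, reached 0.0427 at most, and ACTG2, of enteric smooth muscle, 0.272. ACTA2, of vascular smooth muscle, was the highest of them at 5.36, 5.28 and 4.2.

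Capping protein showed the largest difference among the members. CAPZB, the gene of the beta subunit (chromosome 1, 19665267 to 19812066), stood at an FPKM of 172 (84.6 to 259.7) in the control library, 785 (429.6 to 1144) with ESRP2 siRNA and 434 (225 to 644) with Arkadia siRNA. It was lowest in the control library, 4.56-fold higher with ESRP2 siRNA and 2.52-fold higher with Arkadia siRNA, as log2 ratios 2.18 and 1.33. The interval with ESRP2 siRNA lay above that of control, and the interval with Arkadia siRNA overlapped both. These log2 ratios rank at the 99.9 and the 99.6 percentile of all genes entered. Both comparisons share the control library.

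The alpha subunit genes differed less from control than CAPZB did with either siRNA. CAPZA1 (chromosome 1, 113162075 to 113214241) had 66.5 (34.9 to 98.1), 69.2 (36.2 to 102) and 41.8 (21.4 to 62.3) with control, ESRP2 and Arkadia siRNA. CAPZA2 (chromosome 7, 116502563 to 116559313) had 42.6 (21.7 to 63.4), 79.2 (41.6 to 117) and 20.1 (10.0 to 30.2). CAPZA1 was level with control after ESRP2 siRNA (log2 ratio 0.06) and lower after Arkadia siRNA (-0.66), and CAPZA2 was 1.86-fold higher (0.88) and 2.11-fold lower (-1.04). The intervals of each gene overlapped between control and knockdown libraries.

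The ratio of beta to alpha transcript levels therefore differed between the libraries. CAPZB was at 1.58 times CAPZA1 plus CAPZA2 with control siRNA, at 5.29 times with ESRP2 siRNA and at 7.01 times with Arkadia siRNA. This ratio was not corrected for GC content, which was 53% for CAPZB, 42.4% for CAPZA1 and 40.7% for CAPZA2. With the GC subtraction described below, the log2 ratios of CAPZB with ESRP2 and Arkadia siRNA were 2.29 and 1.19. Those of CAPZA1 were -0.36 and -0.42, and those of CAPZA2 0.37 and -0.70. The order of the knockdown libraries in this ratio is therefore uncertain. The proteins pair 1 to 1, and protein was not measured. The share of CAPZA1 within the alpha transcripts was 61%, 46.6% and 67.5%.

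Nearly all CAPZB signal was assigned to the coding isoform NM_004930 (1710 nt), with 99.5%, 99.9% and 99.8% of the gene. It stood at 171 (83.4 to 259), 784 (426 to 1141) and 433 (223 to 644). The non-coding NR_038125 was at 0.8, 0.587 and 1.07 and NM_001206540 at 0, 0.577 and 0. The usage changes were 0.0039 with ESRP2 siRNA and 0.00218 with Arkadia siRNA, so the difference in CAPZB was one of the whole gene in this table.

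The 5 genes nearest to CAPZB in the plane of both log2 ratios, among 1946 other genes with a mean FPKM of at least 50, were LDHB, RHEB, SNX3, FTL and ITM2B. LDHB, a lactate dehydrogenase subunit, lay at a distance of 0.36, with FPKM of 451, 1694 and 965 in the order control, ESRP2, Arkadia siRNA. RHEB, the GTPase that activates mTORC1, had 28.6, 139 and 94.4 at the same distance. SNX3, FTL (ferritin light chain) and ITM2B lay at 0.56 to 0.8, each lowest in the control library and highest with ESRP2 siRNA. The measure covers 3 libraries only. These genes were picked for ratios near those of CAPZB, so the order they share with it follows from that choice.

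The 250 bases before the CAPZB start are shown because this gene differed most (RefSeq promoter table, GRCh38.p14, chr1:19485540-19485789, minus strand); capitals mark GGGCGG on either strand, the GC box bound by Sp1-type factors.
CAPZB: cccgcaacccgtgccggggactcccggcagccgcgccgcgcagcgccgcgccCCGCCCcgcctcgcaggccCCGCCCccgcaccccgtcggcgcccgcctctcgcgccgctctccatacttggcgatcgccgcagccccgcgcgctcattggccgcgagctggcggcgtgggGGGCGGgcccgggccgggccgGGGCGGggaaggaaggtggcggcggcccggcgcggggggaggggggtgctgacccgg

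CAPZB held 4 matches. Promoter entries were found for 8 of the 10 members, 9 entries in all since CFL2 has 2. ACTB and PFN2 had no entry, so their promoters were not searched for either motif. All 9 entries held GGGCGG, at 1 to 4 places, and 42.6% of 35097 promoter windows of this length held it. The CArG box, the site of serum response factor (SRF) in actin genes, was found in 1 of the 9, that of ACTG1, and in 1.16% of all windows. The ACTG1 match, in capitals, begins 94 bases before the start (GRCh38.p14, chr17:81512854-81512923, minus strand). It does not overlap a GGGCGG match.
ACTG1: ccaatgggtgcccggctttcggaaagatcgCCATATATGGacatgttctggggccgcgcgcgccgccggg

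In the cofilin family the abundant gene CFL1 did not pass 1.5-fold with either siRNA, while CFL2 passed with both and DSTN with Arkadia siRNA only. After the GC subtraction described below, only CFL2 with ESRP2 siRNA still passed, and only just. CFL1, the main non-muscle cofilin (chromosome 11, 65622285 to 65625804), had 665 (346 to 984), 548 (284 to 813) and 757 (394 to 1119) with control, ESRP2 and Arkadia siRNA, log2 ratios of -0.28 and 0.19. CFL2, the form typical of muscle (chromosome 14, 35179588 to 35184029), had 29.5 (13.3 to 45.7), 69.7 (34.0 to 106) and 17.5 (8.05 to 27.0). It was 2.36-fold higher with ESRP2 siRNA (1.21) and 1.68-fold lower with Arkadia siRNA (-0.72). DSTN, which encodes destrin (chromosome 20, 17550599 to 17588652), had 84.7 (41.5 to 128), 103 (48.1 to 158) and 46.1 (21.2 to 71.1), with log2 ratios of 0.28 and -0.86.

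All these intervals overlapped with those of the control library. CFL2 and DSTN together supplied 14.7% of the family's FPKM with control siRNA, 24% with ESRP2 siRNA and 7.76% with Arkadia siRNA. These shares were not corrected for GC content, which was 59.1% for CFL1, 37.7% for CFL2 and 40.1% for DSTN. DSTN was mostly NM_006870, at 96.9%, 94.1% and 93.7%, with NM_001011546 as the rest.

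CFL2 had the largest isoform differences among the members. NM_001243645 (3102 nt) stood at 16.1 (4.16 to 28.0), 58.6 (25.2 to 92.1) and 4.37 (0.116 to 9.2), or 54.5%, 84% and 24.9% of the gene. NM_138638 (3267 nt) stood at 12.9 (3.09 to 22.8), 10.0 (0.109 to 22.8) and 8.34 (2.13 to 14.6), or 43.9%, 14.4% and 47.5%. NM_021914 (3125 nt) was listed at 0.0046, 0.00459 and 4.31 (0.143 to 9.21), or 24.5% with Arkadia siRNA, and its deposited intervals with control and ESRP2 siRNA were 0 to 0. The higher CFL2 level with ESRP2 siRNA was thus assigned to NM_001243645, while NM_138638 was not higher. The intervals with control and ESRP2 siRNA overlapped for both isoforms, narrowly for NM_001243645.

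The usage changes of CFL2 were 0.3 with ESRP2 siRNA and 0.296 with Arkadia siRNA. Directly between the knockdown libraries the change was 0.591, where 26.3% of genes reached 0.25. The non-coding NR_028130 and NR_028131 each held 1.61% of the gene or less.

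**Figure D3:**
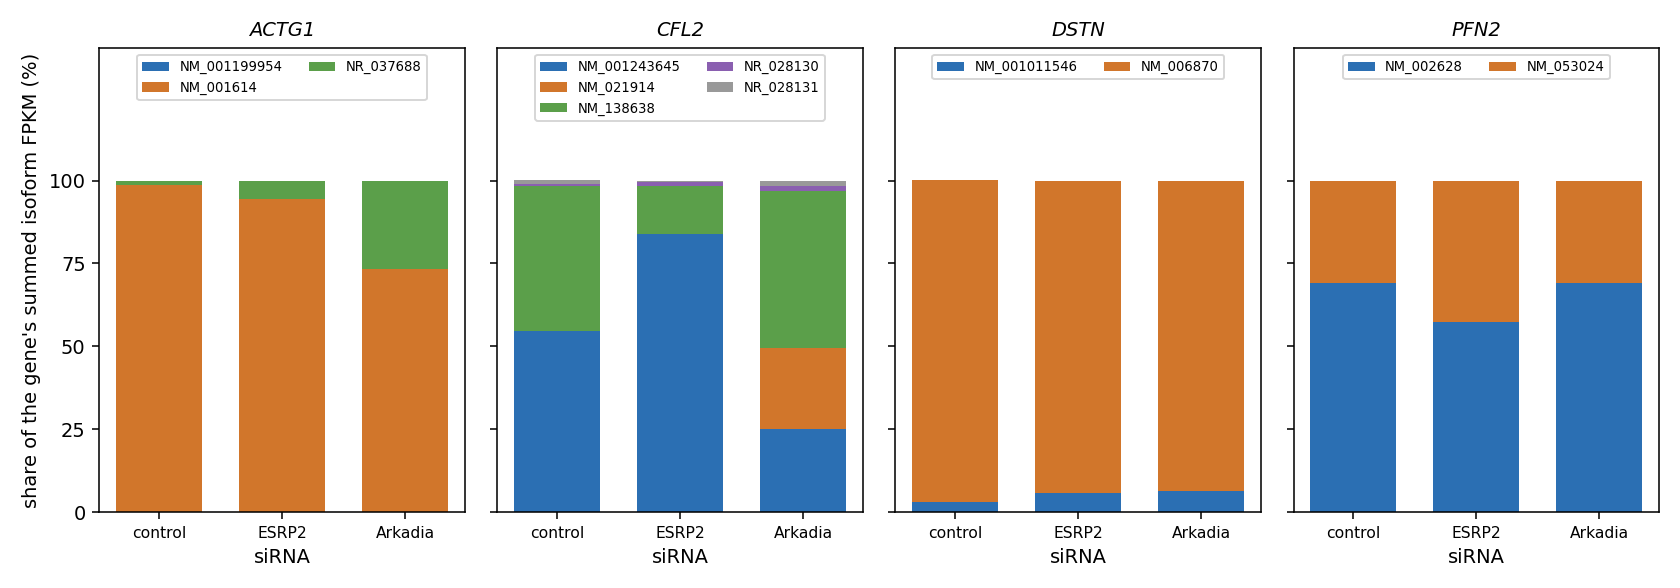
Share of each RefSeq isoform in the summed isoform FPKM of its gene (%), by siRNA, for the 4 members with a second isoform above 1% in some library. The non-coding NR_037688 holds 26.8% of ACTG1 with Arkadia siRNA, and NM_001243645 holds 84% of CFL2 with ESRP2 siRNA and 24.9% with Arkadia siRNA.

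Profilins supply actin monomers to growing ends. PFN1, the widely expressed form (chromosome 17, 4848947 to 4851825), had 614 (289 to 931) with control siRNA, 300.4 (138 to 449) with ESRP2 siRNA and 929 (440.3 to 1395) with Arkadia siRNA. It was 2.04-fold lower with ESRP2 siRNA (log2 ratio -1.03) and 1.51-fold higher with Arkadia siRNA (0.60), just past the size used, and at 0.44 it no longer passed when the trend with transcript length was subtracted. All 3 intervals overlapped, those of the knockdown libraries by a narrow margin.

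PFN2, the form enriched in neurons (chromosome 3, 149682691 to 149688741), had 71.3 (33.4 to 109), 138 (65.8 to 209) and 77.8 (36.6 to 119). It was 1.93-fold higher with ESRP2 siRNA (0.94), the direction opposite to PFN1, and level with Arkadia siRNA (0.12). The share of PFN2 in the sum of both profilins was 10.4%, 31.4% and 7.73%.

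The 2 isoforms of PFN2 share their first 325 coding bases and then differ. The stretch from coding base 306 to 365 is shown, with capitals from the first difference on, because the coding sequences part there. The untranslated parts were not compared, and how reads were divided between the 2 isoforms is not given in the sources used here.
PFN2 NM_002628: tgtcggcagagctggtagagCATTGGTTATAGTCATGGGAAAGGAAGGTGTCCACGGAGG
PFN2 NM_053024: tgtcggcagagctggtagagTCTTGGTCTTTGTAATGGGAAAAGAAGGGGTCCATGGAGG

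NM_002628 stood at 49.1 (18.2 to 80.2), 78.9 (25.3 to 133) and 53.8 (20.2 to 87.6), and NM_053024 at 22.1 (2.99 to 41.4), 58.7 (17.0 to 100.3) and 24.0 (3.35 to 44.8). The share of NM_053024 was 31%, 42.7% and 30.9%. The usage changes of 0.116 and 0.00178 were below 0.25, and all isoform intervals overlapped.

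Transcript base composition moved with these ratios in the whole table. The median log2 ratio with ESRP2 siRNA was 0.60 in the GC-poorest decile of genes (median GC content 37.5%) and -0.49 in the richest (64.4%), and with Arkadia siRNA it was -0.46 and 0.34. The members span this range: CFL2 had a GC content of 37.7%, DSTN 40.1%, CAPZA2 40.7%, CAPZA1 42.4%, PFN2 45.5%, CAPZB 53%, ACTB 55.2%, ACTG1 56.5%, PFN1 58.5% and CFL1 59.1%. The 4 members that were lower with Arkadia siRNA are the 4 with the lowest GC content. The shares and ratios between members given above were not corrected for GC content.

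**Figure D4:**
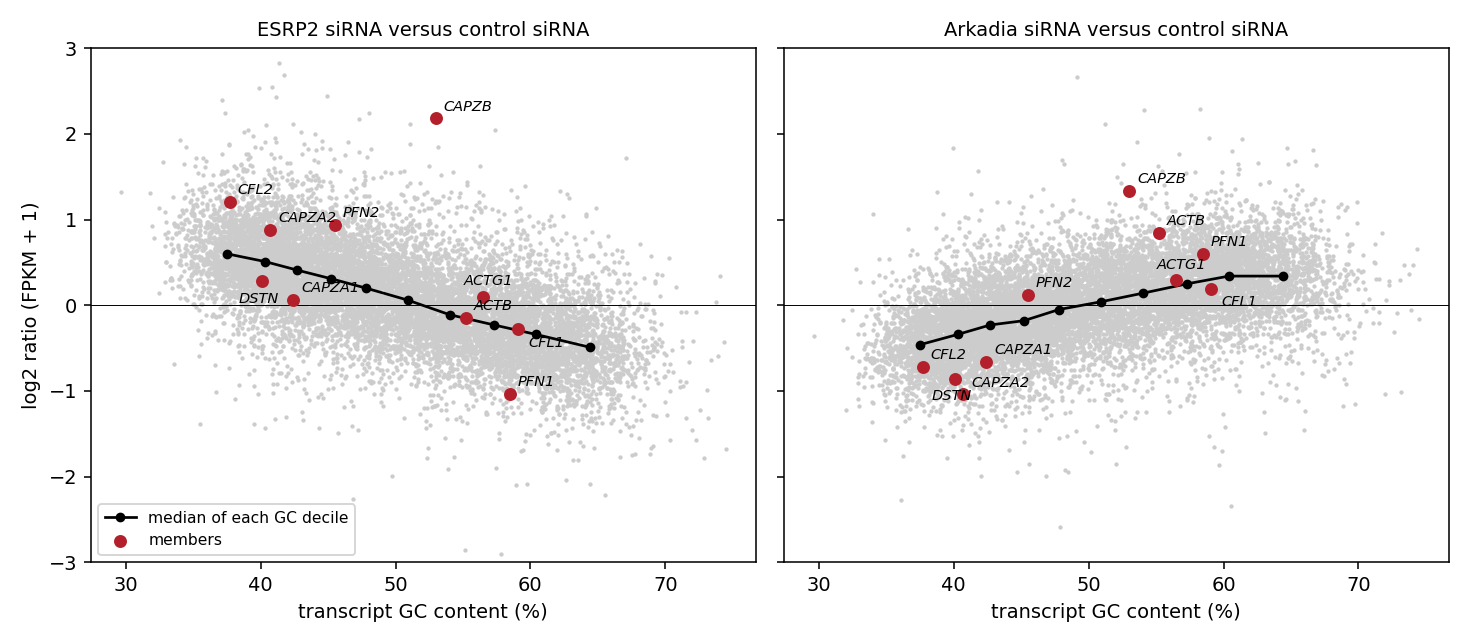
Log2 ratio of FPKM + 1 against transcript GC content (%) for the 11745 genes entered that had a GC value (grey; the few beyond the axes are not shown), the median of each GC decile (black line) and the 10 genes (red), for each knockdown against control. CFL2, CAPZA2, DSTN and CAPZA1 lie on the GC-poor side, and CAPZB lies above the line in both panels.

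After the decile medians were subtracted, 3 members were higher with ESRP2 siRNA (CAPZB 2.29, PFN2 0.63, CFL2 0.62) and 1 lower (PFN1 -0.80), where 9.2% and 7.68% of all genes were. CAPZA2 went from 0.88 to 0.37 and no longer passed. With Arkadia siRNA 2 were higher (CAPZB 1.19, ACTB 0.70) and 1 lower (CAPZA2 -0.70), where 6.35% and 6.98% of all genes were. CFL2 (-0.26), CAPZA1 (-0.42), DSTN (-0.52) and PFN1 (0.34) no longer passed. The calls of CAPZB in both comparisons and of PFN2, CFL2 and PFN1 with ESRP2 siRNA thus passed the size with and without the subtraction. So did those of ACTB and CAPZA2 with Arkadia siRNA. After the subtraction PFN2 and CFL2 were only just past the size.

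Compared directly, without the control library, 2 members were higher with Arkadia siRNA than with ESRP2 siRNA (PFN1, ACTB) and 6 were lower (CFL2, CAPZA2, DSTN, CAPZB, PFN2, CAPZA1), where 21.2% of all genes were higher and 30.8% lower, a total of 52%. With median-of-ratios or upper-quartile scaling the split was 3 and 5, with CFL1 joining the higher members and CAPZA1 leaving the lower ones, and that of all genes went from 2521 higher and 3656 lower to 3102 and 2995 or 3126 and 2968, with a shift of the median of 0.14 in both. At 2-fold 4 members passed (CFL2, CAPZA2, PFN1, DSTN), where 24.4% of all genes did. CFL2 was 3.98-fold lower (log2 ratio -1.93) and CAPZA2 3.93-fold lower (-1.92), and in both the intervals of the knockdown libraries did not overlap. Of all genes entered, 6.36% both passed 1.5-fold and had intervals that did not overlap. PFN1 was 3.09-fold higher (1.63), ACTB 1.99-fold higher (0.99) and CAPZB 1.81-fold lower (-0.85), with intervals that overlapped.

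After GC subtraction PFN1 (1.15) and ACTB (0.74) remained higher in this direct comparison, and CAPZB (-1.10), CAPZA2 (-1.07) and CFL2 (-0.86) lower. DSTN (-0.28), PFN2 (-0.34) and CAPZA1 (-0.08) did not pass. At that point 12.5% of all genes were higher and 14.1% lower.

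The wider set of actin regulators was read from 10 lists with 130 genes, of which 114 entered. With ESRP2 siRNA 26 of the 114 were higher and 14 lower, with a median log2 ratio of 0.07, where 19.9% and 11.4% of all genes were higher and lower. With Arkadia siRNA 11 were higher and 11 lower, with a median of -0.01, where 9.81% and 11.8% of all genes were. These shares of all genes are the ones to set beside every uncorrected list count below. After GC subtraction 8 were higher and 8 lower with ESRP2 siRNA, where 9.2% and 7.68% of all genes were. With Arkadia siRNA these were 6 and 7, where 6.35% and 6.98% of all genes were. The GC-subtracted list counts below are to be set beside these GC-subtracted shares. The uncorrected medians compare with 0.12 and -0.02 over all genes, and none of the genes had an interval that did not overlap with that of the control library.

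The Arp2/3 complex, which nucleates branches, had 5 of 10 subunit genes, alternative paralogues included, higher and 1 lower with ESRP2 siRNA, and 2 higher and 0 lower with Arkadia siRNA. After GC subtraction these were 3 and 1, and 2 and 0, and the ESRP2 siRNA median went from 0.60 to 0.25. ACTR3, an actin-related subunit on which the branch is built, had FPKM of 37.9, 93.8 and 30.5 in the order control, ESRP2, Arkadia siRNA, the order used for all genes that follow, and ARPC5 had 50.1, 117 and 54.8. ARPC1B went the other way, with 41.3, 22.9 and 77.7. Of 13 activators of the complex 3 were higher and 1 lower with ESRP2 siRNA (0 and 2 after GC subtraction), and 0 and 2 with Arkadia siRNA (0 and 1). The WAVE complex subunit BRK1 was 103, 63.8 and 107, WASF3 (WAVE3) 7.63, 13.1 and 10.4, and WASL (N-WASP) 7.86, 10.8 and 4.26.

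Among 20 regulators and partners of cofilin, 2 were higher and 2 lower with ESRP2 siRNA (1 and 1 after GC subtraction), and 3 and 4 with Arkadia siRNA (2 and 1). WDR1, which speeds disassembly of cofilin-bound filaments, was 48.4, 57 and 116, a log2 ratio of 1.25 with Arkadia siRNA and 1.11 after GC subtraction. The coronin CORO1B was 37, 14.3 and 45.3. TESK1, a kinase of cofilin, was 3.87, 2.28 and 9.13.

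Of 13 capping protein regulators and other barbed end cappers, 3 were higher and 2 lower with ESRP2 siRNA, and 1 and 2 with Arkadia siRNA. After GC subtraction 0 were higher and 0 lower with ESRP2 siRNA, and 0 and 1 with Arkadia siRNA. TWF1 (twinfilin), which binds capping protein and monomers, was 22.3, 41.7 and 9.02, and CD2AP, which binds capping protein, 8.39, 19.9 and 5.44. ADD3, an adducin, was 17.8, 31.5 and 16.3. Their log2 ratios with ESRP2 siRNA went from 0.88 to 0.28 (TWF1), from 1.15 to 0.55 (CD2AP) and from 0.79 to 0.38 (ADD3) after GC subtraction.

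Dynactin contains a short Arp1 filament that is itself capped by capping protein. With ESRP2 siRNA 5 of its 9 genes were higher and 0 lower, and with Arkadia siRNA 0 and 0. After GC subtraction these were 2 and 1, and 1 and 0, and the ESRP2 siRNA median went from 0.59 to 0.23. ACTR10 was 24.9, 42.4 and 18.5, DCTN4 29.1, 48.4 and 23, and DCTN6 17.7, 30.4 and 20.5, each highest with ESRP2 siRNA. The intervals of DCTN6 were wide (0 to 47.2, 0.272 to 73.1 and 1.09 to 43.2), so its order is uncertain.

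Formins and Ena/VASP proteins take up profilin-bound actin. Of 15, 4 were higher and 1 lower with ESRP2 siRNA, and 1 and 0 with Arkadia siRNA, with medians of 0.04 and -0.34. After GC subtraction 0 were higher and 0 lower with ESRP2 siRNA, and 0 and 2 with Arkadia siRNA, with medians of 0.16 and -0.17. DIAPH2 was 4.79, 9.83 and 3.02, DIAPH3 10.7, 18.5 and 7.54, and INF2 15.3, 6.96 and 17.3. Of 4 thymosins, which sequester monomers, 0 were higher and 1 lower with ESRP2 siRNA, and 1 and 1 with Arkadia siRNA, the same counts as after GC subtraction. TMSB10 was 776, 613 and 1374, TMSB15A 22.3, 11.5 and 28.2, and TMSB15B 27.6, 26.9 and 12.6. The 2 TMSB15 genes are close copies, so their values are uncertain.

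Filament binding, bundling and severing genes had 1 higher and 5 lower of 17 with ESRP2 siRNA, and 3 and 1 with Arkadia siRNA. After GC subtraction these were 0 and 2, and 0 and 0, and the ESRP2 siRNA median went from -0.33 to -0.03. The bundler FSCN1 was 42.5, 28.6 and 80.7, and the crosslinker FLNA was 41.1, 21.8 and 45.1. Of 11 genes of SRF, its MRTF coactivators and targets, 2 were higher and 1 lower with ESRP2 siRNA (2 and 0 after GC subtraction), and 0 and 1 with Arkadia siRNA (0 and 1). SRF itself was 22.6, 17.6 and 11.4, the myosin heavy chain MYH9 66.5, 37.8 and 70.9, and FHL2 20.5, 41.7 and 23.2. Of the other actins 2 of 7 entered, and the nuclear actin-related ACTL6A was 48.2, 80.3 and 37.7, a log2 ratio of 0.73 with ESRP2 siRNA and 0.31 after GC subtraction.

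**Figure D5:**
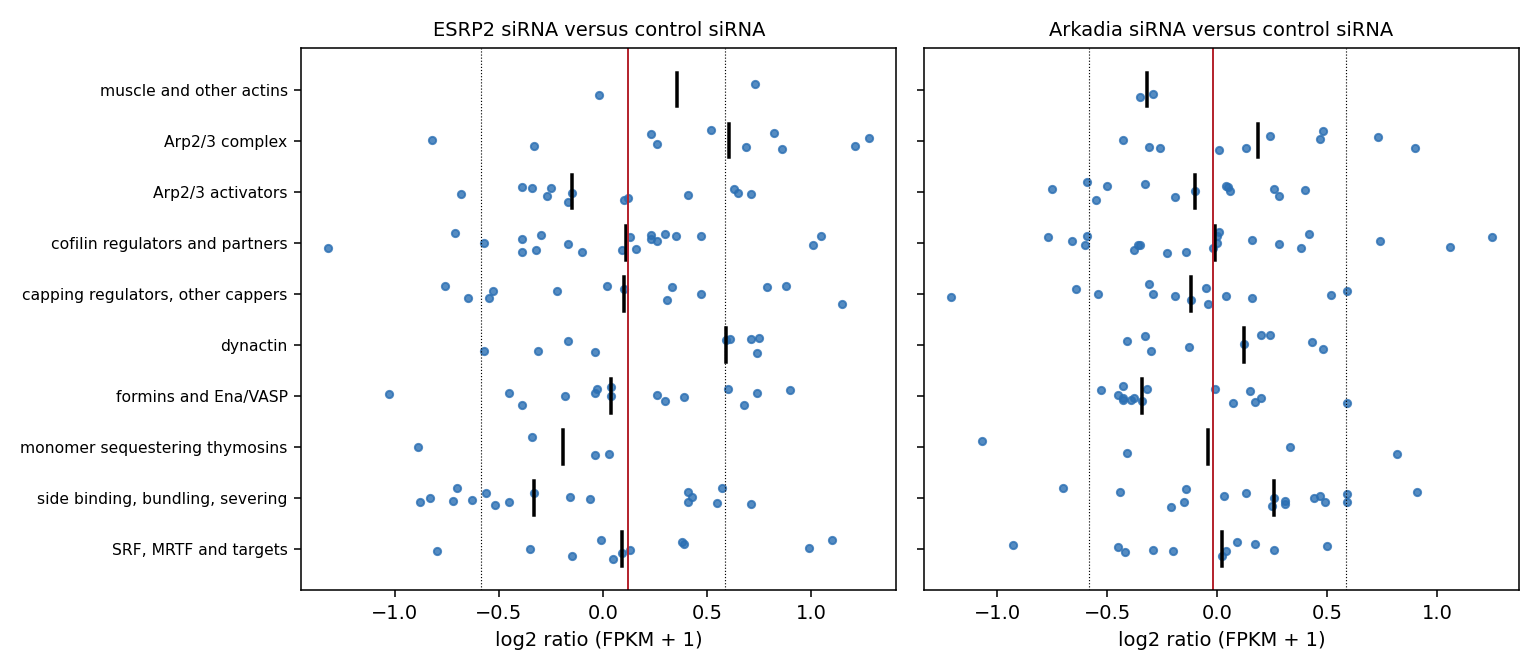
Log2 ratio of FPKM + 1 for the genes of 10 actin-related lists (points), the median of each list (black bars) and of all genes entered (red line), for each knockdown against control; dotted lines are 1.5-fold and the height within a row is arbitrary. Arp2/3 (median 0.60) and dynactin (0.59) lie to the right of all genes (0.12) with ESRP2 siRNA, and formins and Ena/VASP (-0.34) to the left with Arkadia siRNA; these 3 medians are 0.25, 0.23 and -0.17 after GC subtraction, which is not drawn.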

How the data were processed

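The FPKM values, with lower and upper confidence bounds, were deposited by the authors as a gene and an isoform table, per the file headers. The submitters' processing notes name Cufflinks 2.1.1, Cuffdiff, Bowtie2 2.1.0 and TopHat2 2.0.10, and the build hg19. Which tool did what, how libraries were scaled, the level of the intervals and whether strand was used is not given in the sources used here. Sequencing was on the Ion platform, per the labels' protocols.

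Genes entered if their status was OK in all 3 libraries, their mean FPKM reached 1 and their longest isoform 300 nt. Ratios used a pseudocount of 1, which understates changes of low genes. There was 1 library per group, so no test was made and no p-value exists. Depth was estimated from FPKM times length of single-isoform genes at the lowest step, taken as 1 read. Isoform usage was scored where the isoforms summed to an FPKM of 5 or more in every library.

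GC content came from GENCODE 29 transcripts (GRCh38, no coordinates used), matched by accession for 95.7% and by symbol for 3.2% of genes entered. CAPZB was matched by symbol. The matched transcript was much longer than the longest deposited isoform for CFL2 (6747 against 3267 nt), CAPZA2 (5182 against 2356 nt) and PFN1 (1291 against 807 nt). It was longer by less for CAPZA1, DSTN and PFN2. The GC-subtracted ratios of these genes are uncertain to that extent. Coding identities used Biopython 1.88 global alignment. The subtraction was tested on simulated data in which changes were placed independently of GC content. That setting does not cover changes tied to GC content. The simulated trend was linear and the placed changes were well above 1.5-fold, so changes near 1.5-fold are not covered either. The members and lists were chosen with earlier results of these data known. Named genes were all members with their isoforms of at least 5% of the gene, the siRNA targets, up to 3 genes per list with the largest ratios among those past 1.5-fold against control (higher FPKM 5 or more), and the 5 genes nearest to the member that differed most. A gene of the lists that this rule names is not reported here. Python 3.11.15 was used.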

Additional observations from a re-analysis of the deposited data

How the results depend on the processing

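The number of members past 1.5-fold (5 with ESRP2 siRNA, 7 with Arkadia siRNA and 8 directly) stayed within 1.5 times under both other pseudocounts, both other filters, both scalings, the summed isoform table and length subtraction. GC subtraction gave 4, 3 and 5 members. A size of 2-fold left 3, 2 and 4, and requiring intervals that did not overlap left 1, 0 and 2, by construction fewer. No called member changed sign under any of these settings. Of the 5 members with at least 2 isoforms, the number with a usage change of at least 0.25 was 1, 2 and 1. Of all 3455 genes scored, 20%, 17.1% and 26.3% reached it. The member counts were the same under all 3 alternatives for isoforms. No paired analysis was possible because each group had 1 library. For the same reason no replicate could be left out. The Arkadia siRNA library was the shallowest, with about 492 reads on CFL2.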
